A study of Homo sapiens with 6 samples.

Results

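A set of 45 genes that build and run the mitotic spindle was examined in 2 gastric cancer cell lines, before and after transfection with the transcription factor MIST1. They comprise the spindle checkpoint, the chromosomal passenger complex, kinetochore proteins, mitotic kinesins, spindle assembly factors, the mitotic cyclins with CDK1, the genes of anaphase entry, cytokinesis proteins, and the proliferation markers MKI67 and TOP2A. The members were a fixed list of 45 gene symbols, chosen with earlier results of these data known. Each was measured by the probe set, among those that name only that gene, with the highest mean over the 6 arrays. All 45 passed the filter on dim probe sets, out of 13738 genes tested, and all 45 had the same probe set before that filter.

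The series holds 6 one-colour arrays: the lines AGS and HGC-27 each have 3, 1 per condition. MIST1 arrays are from cells nucleofected with 3 µg of a MIST1 plasmid and 1.5 µg of a GFP plasmid. GFP control arrays are from cells given 3 µg of empty vector and the same GFP plasmid. Parental arrays are from cells with no genetic modification. Both transfected conditions were sorted for GFP fluorescence 24 h after transfection and grown 24 h more, so nucleofection, GFP and sorting are shared by MIST1 and GFP control cells and absent from parental cells. Transfection was transient, and each condition has 1 array per line. In the results "transfected" means the mean of the MIST1 and GFP control arrays of a line, and values are the deposited linear intensities unless a value is given as a log2 change. For comparisons between conditions the lines serve as the 2 replicates, and p-values measure only the spread between these arrays. Nothing in the labels says that arrays of 1 line came from separate cultures.

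Mitotic genes are transcribed late in the cell cycle, peaking in G2 and M, so that their summed level in a culture follows the share of dividing cells. At mitotic entry CDK1 with cyclin A or B and the kinases PLK1 and AURKA drive spindle assembly. The checkpoint then holds the anaphase-promoting complex inactive until kinetochores are attached, after which CDC20 and UBE2C lead it to destroy securin and cyclin B. Transcription of this group is known to depend on the MuvB complex with B-MYB and FOXM1, which acts at the cell cycle homology region, TTTGAA, and on NF-Y, which binds CCAAT. MIST1 (gene symbol BHLHA15) is a basic helix-loop-helix factor of secretory cells that binds E-boxes such as CATATG.

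Promoter sequence was set beside the expression data because this group is known to share promoter elements. RefSeq promoter windows (GRCh38.p14, 250 bases before to 50 after the gene start) were matched for 38 of the 45 members by symbol, giving 48 windows. FOXM1, TPX2, AURKA, BIRC5, BUB3, UBE2C and TTK had no entry. TTTGAA on either strand was in 31 of the 48 windows (64.6%), against 15.2% of all 35116 windows of the same length. CCAAT on either strand was in 37 (77.1%), against 34.6% of all windows, and 22 (45.8%) held 2 or more, against 10.8%. The variant TTCGAA was in 3 windows (6.25%), against 1.45%. The E-boxes were not more frequent than in all windows: CATATG was in 1 window (2.08%), against 3.04%, and CAGCTG in 6 (12.5%), against 17.9%. Of the 43 TTTGAA matches in member windows, 23 began between -70 and -1 relative to the start. In windows of G1 and S phase genes, TTTGAA was in 2 of 31 (6.45%) and CCAAT in 21 (67.7%), with 2 or more in 13 (41.9%). In windows of other kinetochore and centromere genes TTTGAA was in 10 of 32 (31.2%) and CCAAT in 22 (68.8%), and in those of condensin genes TTTGAA was in 6 of 10 (60.0%) and CCAAT in 3 (30.0%).

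The 100 bases before the start are printed for 10 members, 5′ to 3′ on the gene's strand. They are genes whose level differed between transfected and parental cells in 1 line or both, with CCNB2 beside CCNB1 as the other B-type cyclin. Capitals mark TTTGAA and CCAAT (or ATTGG, its reverse complement), and adjoining or overlapping matches run together. PLK1, HMMR, KIF23 and CCNB1 were lower in the transfected cells of both lines:
PLK1, chr16:23678789-23678888, plus strand: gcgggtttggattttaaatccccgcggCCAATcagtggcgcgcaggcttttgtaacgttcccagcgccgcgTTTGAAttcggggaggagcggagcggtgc
HMMR, chr5:163460532-163460631, plus strand: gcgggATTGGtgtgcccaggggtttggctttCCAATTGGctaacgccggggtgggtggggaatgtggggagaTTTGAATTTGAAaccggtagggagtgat
KIF23, chr15:69414249-69414348, plus strand: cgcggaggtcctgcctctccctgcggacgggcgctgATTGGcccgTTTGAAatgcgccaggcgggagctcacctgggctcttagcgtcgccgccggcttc
CCNB1, chr5:69167050-69167149, plus strand: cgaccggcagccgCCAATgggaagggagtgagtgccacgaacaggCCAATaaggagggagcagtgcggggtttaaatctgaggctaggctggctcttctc
CCNB2, chr15:59105046-59105145, plus strand: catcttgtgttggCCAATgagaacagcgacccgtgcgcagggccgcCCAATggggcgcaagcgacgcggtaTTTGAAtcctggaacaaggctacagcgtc
PRC1, KIF4A and INCENP were higher in transfected AGS cells, KIF20A was higher in transfected HGC-27 cells, and MKI67 was lower in transfected HGC-27 cells:
PRC1, chr15:90994536-90994635, minus strand: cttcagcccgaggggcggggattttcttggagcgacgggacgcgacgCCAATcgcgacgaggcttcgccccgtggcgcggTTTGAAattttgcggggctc
KIF4A, chrX:70290004-70290103, plus strand: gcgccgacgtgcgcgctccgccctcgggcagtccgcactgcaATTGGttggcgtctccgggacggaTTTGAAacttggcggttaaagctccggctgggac
INCENP, chr11:62123911-62124010, plus strand: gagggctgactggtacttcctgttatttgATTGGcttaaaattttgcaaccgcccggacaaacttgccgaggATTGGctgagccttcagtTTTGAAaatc
KIF20A, chr5:138179012-138179111, plus strand: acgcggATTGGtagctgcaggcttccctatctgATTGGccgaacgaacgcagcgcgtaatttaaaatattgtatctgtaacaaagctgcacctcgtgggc
MKI67, chr10:128126424-128126523, minus strand: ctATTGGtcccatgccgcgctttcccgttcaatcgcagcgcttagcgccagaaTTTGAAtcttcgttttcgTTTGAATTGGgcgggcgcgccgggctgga
HMMR has 2 tandem copies of TTTGAA close to the start, and MKI67 has 2 copies apart. The stretches of CCNB1 and KIF20A hold 2 CCAAT letters each but no TTTGAA, which was also absent from their whole windows. TTTGAA was therefore present in genes that were higher and in genes that were lower after transfection. Among members with a window, it was in 15 of the 18 genes that fell in either line and in 13 of the other 20. A match is a match of letters only.

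Array medians lay between 49.1 and 51.96, and arrays of 1 line correlated at r 0.971 to 0.996 over the genes tested. The single probe set for BHLHA15 read 72.5 (MIST1), 75.9 (GFP control) and 66.3 (parental) in AGS, and 58.7 (MIST1), 61.9 (GFP control) and 41.1 (parental) in HGC-27, so the MIST1 array was not the highest in either line, and the probe set does not check the labels. Whether it covers the transfected sequence is not known here. AGS arrays carried the epithelial markers EPCAM (5681 to 7098), KRT18 and KRT19. The epithelial marker CDH1 read 221 to 291 in AGS, and 75.4 (MIST1), 89.8 (GFP control) and 22.1 (parental) in HGC-27. KRT8 read 1349.5 to 1562 in HGC-27. Of the markers listed for other cells, COL1A1 read 5620 to 5944 in HGC-27 and 682 to 1314 in AGS. DCN, also listed there, read 3244 to 4607 in HGC-27 and at most 49.6 in AGS. HGC-27 arrays were at or below 34.4 for EPCAM, 35.8 for KRT18 and 9.2 for KRT19, below the median of all values (50.5). The leucocyte marker PTPRC read at most 52.4, and the monocyte marker CD14 and the endothelial marker VWF stayed below that median on all 6 arrays, while CD3E read 41.6 to 66.7 and PECAM1 80.9 to 101.

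MIST1 was compared with the GFP control to ask what MIST1 adds to transfection and sorting. No member passed the test at an adjusted p under 0.05, nor did any of the 13738 genes (0%), by limma with cell line as a block. At an unadjusted p under 0.05 the counts were 0 of 45 members and 184 of all genes. The median log2 change of the members was 0.09, with 0.11 in AGS and 0.07 in HGC-27, against -0.02 over all genes tested. MIST1 cells had the higher value in both lines for 30 members (background 24.5% of all genes) and the lower value in both for 5 (background 32.7%). No member reached 1.5-fold in either direction in either line, where 1.11% of all genes were at least 1.5-fold higher and 0.713% lower in AGS, 1.27% higher and 1.14% lower in HGC-27.

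The largest positive log2 change with MIST1 was that of SPC25, a subunit of the NDC80 complex that ties kinetochores to microtubules. SPC25 read 1091 (MIST1), 848 (GFP control) and 1100.5 (parental) in AGS, and 819 (MIST1), 719 (GFP control) and 1061 (parental) in HGC-27, a log2 change of 0.28 (SE 0.13, adjusted p = 1). In both lines its MIST1 value lay above the GFP control and below the parental value. ASPM, a spindle pole protein, followed with 0.25 (SE 0.11), reading 2344 (MIST1), 2034 (GFP control) and 2277 (parental) in AGS, and 2074 (MIST1), 1681 (GFP control) and 2451 (parental) in HGC-27. AURKB, the kinase of the chromosomal passenger complex, read 2639 (MIST1), 2328 (GFP control) and 2298 (parental) in AGS, and 2870.2 (MIST1), 2472 (GFP control) and 2796 (parental) in HGC-27, a log2 change of 0.20 (SE 0.09). The MIST1 array was the highest of the 3 AURKB arrays in each line.

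At the other end, TTK, the kinase that starts the checkpoint, had the lowest log2 change, -0.13 (SE 0.11). Its arrays read 1301 (MIST1), 1380.2 (GFP control) and 1708 (parental) in AGS, and 1013 (MIST1), 1137 (GFP control) and 1165 (parental) in HGC-27, lowest with MIST1 in both lines. NDC80 (-0.04) and KIF23 (-0.03) came next, both within their standard errors of 0. Among the genes that act upstream, the log2 change with MIST1 over the GFP control was 0.11 for the factor FOXM1, -0.01 for cyclin B1 and -0.03 for CDK1. By role, the median change ran between -0.0050 in the spindle checkpoint, where 3 of 5 members were negative, and 0.17 in the centromere and kinetochore group, where 5 of 6 were higher in both lines.

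**Figure D1:**
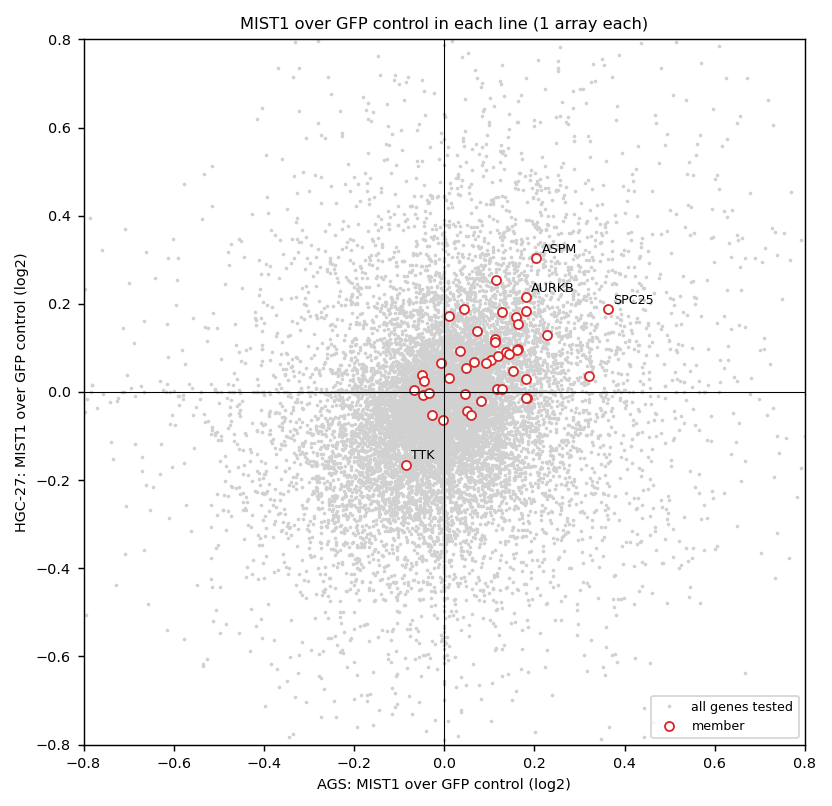
Log2 change of MIST1 over GFP control in AGS (horizontal axis) and in HGC-27 (vertical axis), 1 array per condition and line, for the 45 mitotic genes (open circles) and all genes tested (grey, with more distant genes outside the axes). In all, 30 mitotic genes lie above 0 on both axes, all within a 1.5-fold change, with SPC25, ASPM and AURKB highest and TTK lowest.

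Across the 45 members the MIST1 log2 changes of the 2 lines correlated at r 0.49 and rho 0.46, and 35 (77.8%) had the same sign. Over all genes tested the values were r 0.21 and 57.2%. These are correlations across genes, which are not independent replicates, and each axis is 1 pair of arrays.

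The GFP control was compared with parental cells to show what transfection, GFP and sorting change without MIST1. No member passed the limma test, against 0.269% of all genes, while 16 of 45 had an unadjusted p under 0.05, against 3186 of all genes (23.2%). The median log2 change of the members was -0.19 (AGS -0.07, HGC-27 -0.29), against 0.07 over all genes. GFP control cells had the lower value in both lines for 30 members (background 23.5%) and the higher in both for 6 (background 37.3%). BUB1 was at least 1.5-fold lower in AGS (background 6.03%), and PLK1, MKI67 and CENPF were in HGC-27 (background 5.27%). In bulk RNA such as this, fewer cells in G2 and M and less of a transcript per cell cannot be told apart. This comparison shares its GFP control arrays with MIST1 over GFP control, on the opposite side of the ratio, so that the direction of the 2 comparisons is not independent.

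PLK1, the kinase that acts from mitotic entry to cytokinesis, had the lowest log2 change, -0.69 (SE 0.14, adjusted p = 0.0733). It read 1108 (MIST1), 989 (GFP control) and 1386 (parental) in AGS, and 1004 (MIST1), 939 (GFP control) and 1736 (parental) in HGC-27, with both transfected arrays of each line below the parental one. BUB1, a checkpoint kinase, was next at -0.58 (SE 0.11, adjusted p = 0.0622), and SPC25 followed at -0.47 (adjusted p = 0.112). The highest were INCENP at 0.36 (SE 0.16, adjusted p = 0.231), KIF20A at 0.18 and KIF4A at 0.18. The count of members that fell turned on single arrays, with 3 falling without either MIST1 array. The share of all genes that fell in those fits is not given here. With the parental array of 1 line left out, the contrast rests on the other line's parental array alone. Such a fit describes the other line and does not check the stability of the result. In such a fit the remaining parental array was also assumed to vary like the other groups.

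With MIST1 cells set against the same parental arrays, 1 member fell and none rose (background 1.21% fell, 2.19% rose, 3.40% either way). The member was BUB1, at -0.55 (SE 0.11, adjusted p = 0.0475). BUB1 read 1201 (MIST1), 1206 (GFP control) and 1837 (parental) in AGS, and 787 (MIST1), 752 (GFP control) and 1103 (parental) in HGC-27. Its transfected arrays were close to each other in each line, and both lay far below the parental array. PLK1 had a lower log2 change without passing (-0.56, SE 0.14, adjusted p = 0.079), KIF23 (-0.43) and NDC80 (-0.43) followed, and the highest were INCENP (0.44, SE 0.16, adjusted p = 0.139), KIF4A (0.29) and KIF20A (0.29). In both lines 20 members were lower (background 25.7%) and 10 higher (background 36.5%). PRC1 was at least 1.5-fold higher in AGS (background 10.4%) and BUB1 at least 1.5-fold lower (background 7.79%), and PLK1 was at least 1.5-fold lower in HGC-27 (background 5.79%). After quantile normalization 4 members fell, and 2 with centred arrays. The BUB1 call was lost without the filter, without the floor, without a trend in the variance and without the block for line. The same held with only the 4 arrays compared and when BUB1's probe sets were averaged. It was also lost when any 1 of the 4 transfected arrays was left out. With 1 parental array left out, this contrast too rested on the other line's parental array alone.

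Both transfected arrays of a line were also set against its parental array, line by line. In AGS 4 members rose and 8 fell (background 12.8% rose, 13.6% fell, 26.4% either way). In HGC-27 1 member rose and 18 fell (background 21.4% rose, 8.15% fell, 29.6% either way). In 1 line or both, 25 members passed, and the share of all genes that did so was not counted. Those that fell in both lines were 6 (background 3.40%), namely BUB1, HMMR, KIF23, PLK1, NDC80 and CCNB1, and none rose in both (background 6.33%). The median log2 change of the members was -0.03 in AGS, against 0.00 over all genes, and -0.24 in HGC-27, against 0.11 over all genes.

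The spread in this fit is that between MIST1 and GFP control cells of a line, and a line has 1 parental array, so variation between cultures is not measured and the parental array is assumed to vary like the transfected ones. With any 1 of the 4 transfected arrays left out, no member passed in either line. Without a variance trend the counts were 2 rose and 5 fell in AGS and 0 rose and 7 fell in HGC-27, while without the filter 0 rose and 3 fell in AGS, 0 rose and 7 fell in HGC-27. With the floor at the median of all values the AGS calls of TTK, INCENP and PLK1 and the HGC-27 calls of CENPF, NEK2 and ANLN were lost. Another scaling moved the HGC-27 median of all genes to 0.02 after quantile normalization and, by over 0.1, to -0.05 after centring each array. The members' own median was then -0.01 (quantile) and 0.03 (centred) in AGS, and -0.32 (quantile) and -0.39 (centred) in HGC-27. On the deposited scaling the median of the members minus that of all genes was -0.03 (AGS) and -0.34 (HGC-27), and after quantile normalization it was -0.05 (AGS) and -0.34 (HGC-27). Centring cannot alter these differences, since it shifts all genes of an array alike. In HGC-27, MAD2L1, BUB1B, BUB3, ASPM, CCNB2 and ESPL1 also fell under both other scalings, and SPC25, CENPE, PRC1 and ECT2 fell with centred arrays. In AGS the call of TTK was lost after quantile normalization, and CCNA2 rose with centred arrays. A probe set for 18S ribosomal RNA moved with this contrast: it read 46.8 (MIST1) and 48.2 (GFP control) in AGS and 52.7 (MIST1) and 52.02 (GFP control) in HGC-27, against 1142 in parental AGS and 371 in parental HGC-27. The 3′ to 5′ ratio of ACTB stayed between 0.968 and 1.05 on all 6 arrays. The part of either in the results was not tested.

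**Figure D2:**
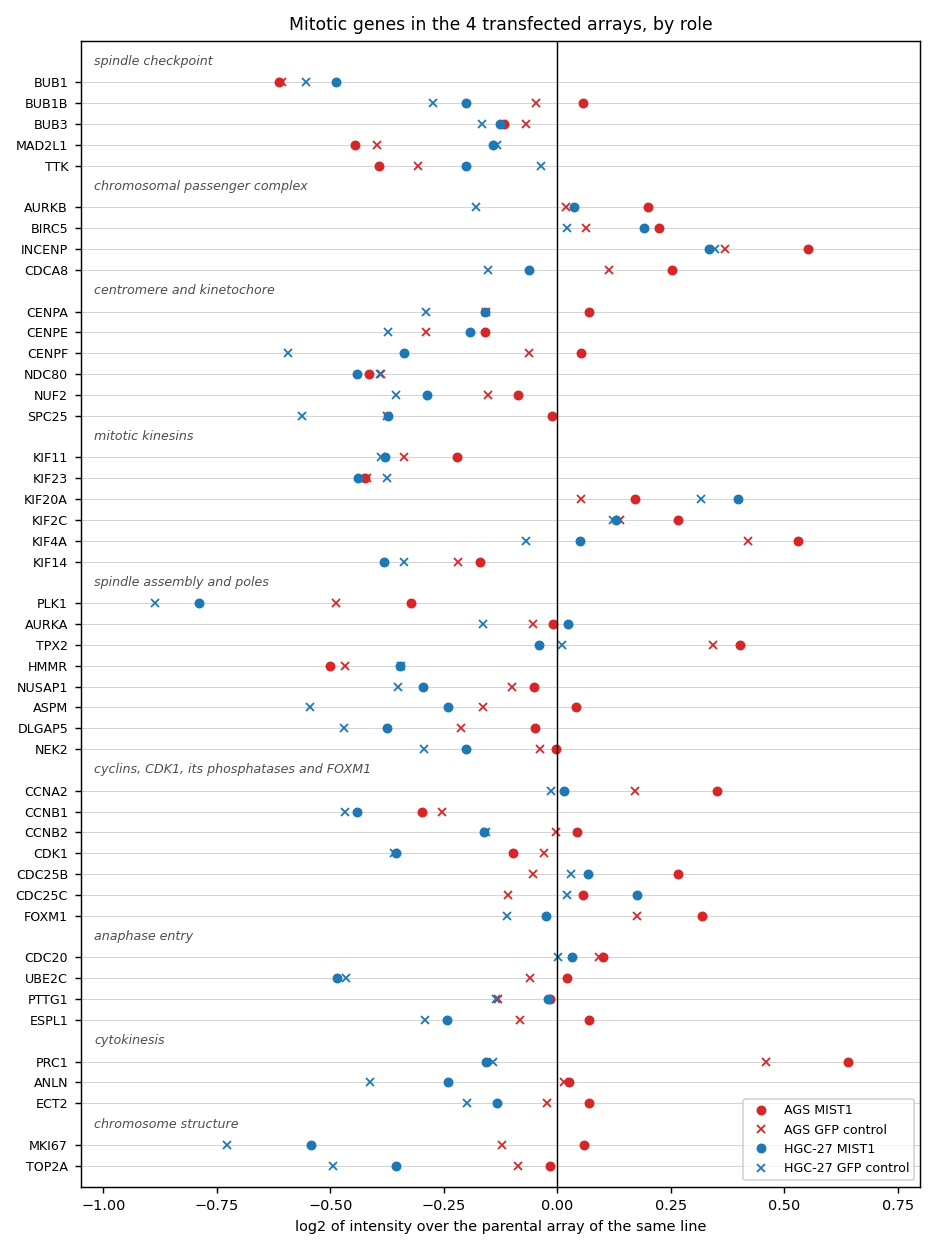
Log2 intensity of each mitotic gene on the 4 transfected arrays relative to the parental array of the same line, with genes grouped by role; circles are MIST1, crosses GFP control, red AGS and blue HGC-27. BUB1, NDC80, KIF23, PLK1 and HMMR lie left of 0 on all 4 arrays, whereas PRC1, KIF4A and TPX2 lie well right of 0 on both AGS arrays.

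The spindle checkpoint delays anaphase until every kinetochore is attached. Of its 5 members, 3 fell in AGS (background 13.6%) and 1 in HGC-27 (background 8.15%), and none rose. The split between lines turned with the scaling: 2 fell in AGS and 4 in HGC-27 after quantile normalization, and 3 in AGS and 4 in HGC-27 with centred arrays. BUB1 fell in both lines, with log2 changes of -0.61 (SE 0.08, adjusted p = 0.00652) in AGS and -0.52 (SE 0.08, adjusted p = 0.00674) in HGC-27. MAD2L1, the MAD2 protein that inhibits CDC20, read 2503 (MIST1), 2587 (GFP control) and 3408 (parental) in AGS, and 2415 (MIST1), 2428 (GFP control) and 2663 (parental) in HGC-27. It fell in AGS (-0.42, SE 0.06, adjusted p = 0.00714) and had a log2 change of -0.14 in HGC-27 (adjusted p = 0.117). Another MAD2L1 probe set, nearly as bright, did not show this fall, with -0.03 in AGS and 0.05 in HGC-27. A dimmer MAD2L1 probe set had -0.68 and -0.23. TTK fell in AGS (-0.35, SE 0.10, adjusted p = 0.0402), with -0.12 in HGC-27. BUB1B and BUB3, partners of MAD2L1 in the checkpoint complex, passed in neither line, with BUB1B at 0.00 in AGS, -0.24 in HGC-27, and BUB3 at -0.09 in AGS, -0.15 in HGC-27.

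The chromosomal passenger complex corrects wrong attachments and later works at the cleavage plane. All 4 members had a positive change in AGS, as did 6898 of the 13738 genes tested. INCENP, the scaffold of the complex, was the 1 that rose (0.46, SE 0.13, adjusted p = 0.0464, background 12.8% rose). INCENP read 194 (MIST1), 170.3 (GFP control) and 132 (parental) in AGS, and 216 (MIST1), 218 (GFP control) and 171 (parental) in HGC-27, above the parental array on all 4 transfected arrays. In HGC-27 its change was 0.34 (adjusted p = 0.0966). AURKB, BIRC5 (survivin) and CDCA8 (borealin) did not pass, with 0.11, 0.14, 0.18 in AGS, against -0.07, 0.11, -0.11 in HGC-27.

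At the centromere and kinetochore all 6 members had negative changes in both lines. Of these, 1 passed in AGS (background 13.6% fell) and 3 in HGC-27 (background 8.15% fell). Over the 13738 genes tested, 6840 changes were negative in AGS and 5166 in HGC-27. Under both other scalings 2 of the 6 changes in AGS were positive, and with centred arrays 5 fell in HGC-27. NDC80, which binds the microtubule, read 963 (MIST1), 981 (GFP control) and 1285 (parental) in AGS, and 1172 (MIST1), 1215 (GFP control) and 1591 (parental) in HGC-27. It fell in both lines, with log2 changes of -0.40 (SE 0.07, adjusted p = 0.0137) in AGS and -0.42 (SE 0.07, adjusted p = 0.0115) in HGC-27, and its MIST1 and GFP control arrays were nearly equal in each line. CENPF, a large protein of the outer kinetochore, read 2177 (MIST1), 2011 (GFP control) and 2100.4 (parental) in AGS, and 1934 (MIST1), 1620.4 (GFP control) and 2443 (parental) in HGC-27. Its log2 change was -0.01 in AGS, and it fell in HGC-27 (-0.46, SE 0.11, adjusted p = 0.027), where the MIST1 array lay between the GFP control and the parental one. NUF2, NDC80's partner, fell in HGC-27 (-0.32, SE 0.08, adjusted p = 0.0277) and read 1167 (MIST1), 1115 (GFP control) and 1239 (parental) in AGS, and 1119 (MIST1), 1067 (GFP control) and 1366 (parental) in HGC-27. CENPA, the histone H3 variant that marks centromeres, CENPE, a kinetochore motor, and SPC25 did not pass, with HGC-27 changes of -0.23, -0.28 and -0.47.

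The mitotic kinesins moved both ways. KIF23, the motor of centralspindlin in the midzone, read 692 (MIST1), 694 (GFP control) and 928 (parental) in AGS, and 511 (MIST1), 534 (GFP control) and 693 (parental) in HGC-27. It fell in AGS (-0.42, SE 0.09, adjusted p = 0.0188) and in HGC-27 (-0.41, SE 0.09, adjusted p = 0.0191), and all 4 transfected arrays were below their parental array. KIF11, which pushes spindle poles apart, read 965 (MIST1), 889.7 (GFP control) and 1124 (parental) in AGS, and 848 (MIST1), 844 (GFP control) and 1104 (parental) in HGC-27. It had a log2 change of -0.28 in AGS and fell in HGC-27 (-0.38, SE 0.09, adjusted p = 0.0215). KIF14 read 1263 (MIST1), 1219.8 (GFP control) and 1421 (parental) in AGS, and 1460.0 (MIST1), 1505 (GFP control) and 1902 (parental) in HGC-27. Its change was -0.19 in AGS, and it fell in HGC-27 (-0.36, SE 0.07, adjusted p = 0.015).

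A pair of kinesins went up instead. KIF4A, a chromosome-bound motor that works with PRC1 in the midzone, read 1537 (MIST1), 1422 (GFP control) and 1063 (parental) in AGS, and 1706 (MIST1), 1570.4 (GFP control) and 1648 (parental) in HGC-27. It rose in AGS (0.48, SE 0.09, adjusted p = 0.0134), where both transfected arrays were far above the parental one, and had a change of -0.01 in HGC-27. KIF20A, which carries the passenger complex to the midzone, was the 1 member that rose in HGC-27 (0.36, SE 0.07, adjusted p = 0.0175) and read 2609 (MIST1), 2401 (GFP control) and 2316 (parental) in AGS, and 2865 (MIST1), 2707 (GFP control) and 2172 (parental) in HGC-27. That call was lost when arrays were centred (0.36 became 0.20). KIF2C, a microtubule depolymerase, had positive changes that did not pass (0.20 in AGS and 0.13 in HGC-27) and read 2361 (MIST1), 2161 (GFP control) and 1964 (parental) in AGS, and 1720.1 (MIST1), 1713 (GFP control) and 1574 (parental) in HGC-27.

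Spindle assembly and pole factors were mostly lower in HGC-27, where 5 of 8 fell (background 8.15%). All 8 changes there were negative, against 5166 of the 13738 genes tested. PLK1 fell in both lines, with log2 changes of -0.40 (SE 0.10, adjusted p = 0.0284) in AGS and -0.84 (SE 0.10, adjusted p = 0.00364) in HGC-27, where its fall was the largest among members. HMMR, which helps focus spindle poles, fell with log2 changes of -0.48 (SE 0.07, adjusted p = 0.00793) in AGS and -0.35 (SE 0.07, adjusted p = 0.0156) in HGC-27, and read 1339 (MIST1), 1370.4 (GFP control) and 1895 (parental) in AGS, and 1166 (MIST1), 1168 (GFP control) and 1483 (parental) in HGC-27. The MIST1 and GFP control arrays of HMMR differed by far less than either did from the parental array.

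The spindle proteins NUSAP1 and DLGAP5 and a centrosome kinase fell in HGC-27 but did not pass in AGS. NUSAP1 read 3828 (MIST1), 3701 (GFP control) and 3964 (parental) in AGS (-0.07) and 3337 (MIST1), 3213 (GFP control) and 4099 (parental) in HGC-27 (-0.32, SE 0.05, adjusted p = 0.00958). DLGAP5, which stabilises spindle fibres, read 2541 (MIST1), 2271 (GFP control) and 2629.7 (parental) in AGS (-0.13) and 1874 (MIST1), 1754 (GFP control) and 2430.1 (parental) in HGC-27 (-0.42, SE 0.09, adjusted p = 0.0167). The NEK2 kinase, which splits centrosomes, read 1954 (MIST1), 1907 (GFP control) and 1958 (parental) in AGS (-0.02) and 1352 (MIST1), 1268 (GFP control) and 1555 (parental) in HGC-27 (-0.25, SE 0.07, adjusted p = 0.0474). In each case the 2 transfected HGC-27 arrays were both below the parental array.

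TPX2, the activator of AURKA, went the other way and rose in AGS (0.37, SE 0.06, adjusted p = 0.00876). It read 4086 (MIST1), 3921 (GFP control) and 3092 (parental) in AGS, and 3099.7 (MIST1), 3214 (GFP control) and 3189.9 (parental) in HGC-27, so that the parental AGS array was the low one and the 3 HGC-27 arrays were level. AURKA itself did not pass, with -0.03 in AGS and -0.07 in HGC-27. ASPM had -0.06 in AGS and -0.39 in HGC-27 by its brightest probe set, neither past the test.

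Among the cyclins, CDK1 and its regulators, CCNB1, the cyclin that brings CDK1 into mitosis, fell in both lines, with log2 changes of -0.28 (SE 0.05, adjusted p = 0.0139) in AGS and -0.45 (SE 0.05, adjusted p = 0.00346) in HGC-27. It read 3588 (MIST1), 3699.7 (GFP control) and 4414 (parental) in AGS, and 3136 (MIST1), 3083 (GFP control) and 4261 (parental) in HGC-27. CDK1 read 3242 (MIST1), 3398 (GFP control) and 3470.2 (parental) in AGS, and 2658 (MIST1), 2649 (GFP control) and 3402 (parental) in HGC-27. It had a change of -0.06 in AGS and fell in HGC-27 (-0.36, SE 0.06, adjusted p = 0.00805). CCNB2 did not pass in either line (0.02 in AGS and -0.16 in HGC-27), nor did CCNA2, which acts from S phase on (0.26 and 0.00). The activating phosphatases CDC25B and CDC25C and the factor FOXM1 lay between -0.03 and 0.25 in AGS and between -0.07 and 0.10 in HGC-27, with no call.

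Of the 4 genes of anaphase entry, UBE2C, the ubiquitin-conjugating enzyme of the anaphase-promoting complex, fell in HGC-27 (-0.48, SE 0.05, adjusted p = 0.00352). It read 5204 (MIST1), 4917 (GFP control) and 5125 (parental) in AGS, and 2989.7 (MIST1), 3033 (GFP control) and 4187 (parental) in HGC-27, with nearly level AGS arrays. CDC20, PTTG1 (securin) and ESPL1 (separase) did not pass, at 0.10, -0.07 and -0.01 in AGS, whereas HGC-27 had 0.02, -0.08 and -0.27. CDC20 differed among conditions less than any other gene of this group in HGC-27.

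Cytokinesis genes held the largest rise among members, that of PRC1 in AGS. PRC1, which bundles the microtubules of the midzone, rose in AGS (0.55, SE 0.08, adjusted p = 0.0085) and read 2955 (MIST1), 2607 (GFP control) and 1895 (parental) in AGS, and 2753 (MIST1), 2781 (GFP control) and 3067 (parental) in HGC-27. Both transfected AGS arrays were far above the parental one, while in HGC-27 all 3 arrays were close (-0.15). ANLN, which scaffolds the contractile ring, fell in HGC-27 (-0.33, SE 0.08, adjusted p = 0.0258) and read 3673 (MIST1), 3646 (GFP control) and 3610.5 (parental) in AGS, and 2817 (MIST1), 2498 (GFP control) and 3326 (parental) in HGC-27. ECT2, the exchange factor that turns on RhoA at the cleavage plane, did not pass (0.02 in AGS and -0.17 in HGC-27).

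Both genes of chromosome structure fell in HGC-27 (background 8.15%). MKI67, the Ki-67 antigen that coats mitotic chromosomes, read 1635 (MIST1), 1443 (GFP control) and 1571 (parental) in AGS, and 508 (MIST1), 447 (GFP control) and 741 (parental) in HGC-27, a log2 change of -0.03 in AGS and -0.64 (SE 0.12, adjusted p = 0.0123) in HGC-27. TOP2A, which untangles sister DNA, read 2922 (MIST1), 2780.0 (GFP control) and 2953 (parental) in AGS, and 3044 (MIST1), 2764 (GFP control) and 3892 (parental) in HGC-27, with -0.05 in AGS and -0.42 (SE 0.07, adjusted p = 0.011) in HGC-27. In HGC-27 the parental array was the highest for both genes, followed by the MIST1 and then the GFP control array.

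Whether the response to transfection differed between the lines was tested as the AGS log2 change minus the HGC-27 one. The signed change was higher in AGS for 3 members (background 2.66%) and lower for none (background 7.53%, with 10.2% either way). They were PRC1 at 0.70 (SE 0.12, adjusted p = 0.0246), UBE2C at 0.46 (SE 0.08, adjusted p = 0.0252) and TPX2 at 0.39 (SE 0.08, adjusted p = 0.0368). PRC1 and TPX2 rose in AGS with no call in HGC-27, where PRC1 fell with centred arrays (-0.30, adjusted p = 0.0413 by limma), and UBE2C fell in HGC-27 with no call in AGS. The difference was 0.60 (SE 0.17, adjusted p = 0.0679) for MKI67, 0.48 (SE 0.12, adjusted p = 0.0578) for KIF4A and 0.46 (SE 0.16, adjusted p = 0.112) for CENPF, none past the test. For the other members that passed in only 1 line a difference between lines was not shown. The median difference over members was 0.18, against -0.12 over all genes. All 3 calls were lost without a variance trend, without the filter, with the floor at the median and when any 1 transfected array was left out, while 5 members passed after quantile normalization and 11 with centred arrays. The median difference over all genes then moved to 0.01 (quantile) and 0.09 (centred), and that over members to 0.28 and 0.39. The backgrounds above are for the deposited scaling and do not apply to these 2 counts.

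Across members the log2 changes in AGS and HGC-27 correlated at r 0.63 and rho 0.67, with 34 of 45 (75.6%) of the same sign, and over all genes at r 0.41 with 64.0% of the same sign. These are descriptions across genes of 6 arrays.

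**Figure D3:**
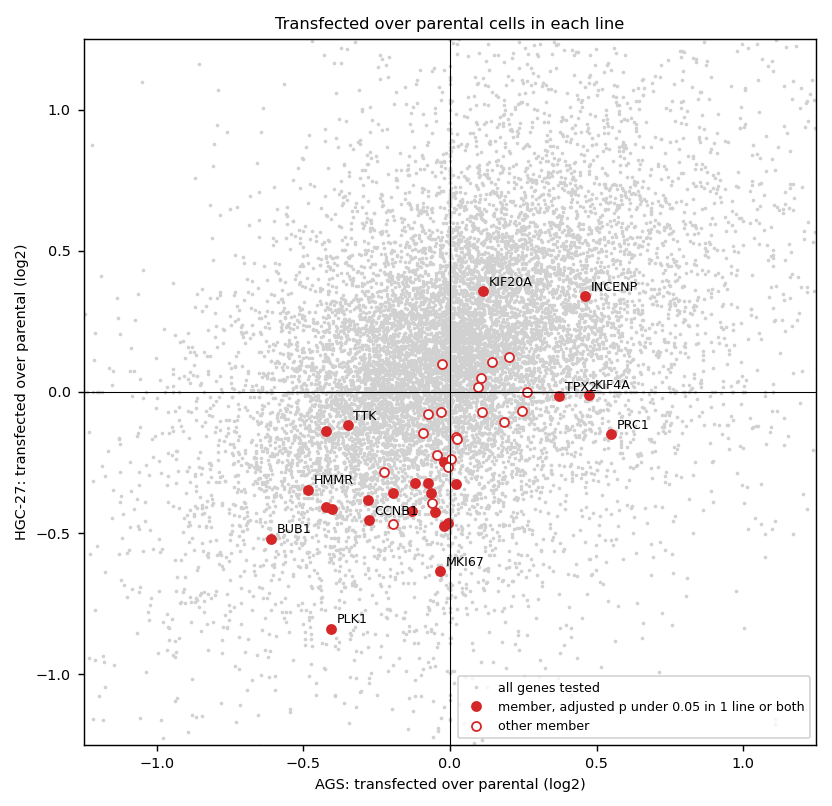
Log2 change of transfected over parental cells in AGS (horizontal axis) and HGC-27 (vertical axis) for the 45 mitotic genes and all genes tested (grey, with more distant genes outside the axes); filled circles passed an adjusted p under 0.05 in 1 line or both, and selected genes are named. Most mitotic genes lie below 0 on the HGC-27 axis, while on the AGS axis they spread to both sides, between BUB1 at -0.61 and PRC1 at 0.55.

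The members' other probe sets gave a second reading of the same RNA. The 45 members have 90 single-gene probe sets, and 39 of the 45 not used above passed the filter, for 23 members. Of these 39, 24 were lower in transfected cells in both lines (61.5%), against 25.4% of the 12210 other passing probe sets of all genes, and 4 were higher in both. Their log2 changes had a median of -0.22 (AGS) and -0.24 (HGC-27). They had the sign of the probe set used in 30 of 39 cases in AGS and 32 in HGC-27. For MIST1 over the GFP control the same sign was found in 22 of 39 in AGS and 26 in HGC-27, with 20 that exceeded the control in both lines and 7 that lay below it in both. Probe sets of 1 gene share the RNA and the arrays, so they repeat the measurement and not the experiment.

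Some disagreed in direction or in size. Another bright probe set of ECT2 had 0.35 in AGS and 0.37 in HGC-27, where the one used had 0.02 and -0.17. Another of CCNA2 had -0.24 in both lines, where the one used had 0.26 and 0.00. Another of ANLN had 0.35 and -0.05, where the one used had 0.02 and -0.33. Both other probe sets of ASPM were much lower in transfected cells, with AGS log2 changes of -1.65 and -1.69 and HGC-27 changes of -1.38 and -1.27, where the probe set used had -0.06 and -0.39. The brighter of them read 209 (MIST1), 229 (GFP control) and 684 (parental) in AGS and 188 (MIST1), 174 (GFP control) and 470.0 (parental) in HGC-27. In both lines its parental array thus stood far above the transfected ones, which was not so for the probe set used. A second probe set of AURKB had a log2 change of -1.18 in AGS, and one of BIRC5 had -0.94 in AGS and 0.71 in HGC-27. HMMR's second probe set had -0.65 in AGS and -0.51 in HGC-27, and TOP2A's had -0.57 and -0.79. BUB1's second brightest had -0.23 and -0.22, less than the one used. When all passing probe sets of a gene were averaged, the HGC-27 calls of BUB1, KIF23, NEK2 and ANLN and the AGS call of KIF23 were lost. Among the probe sets used 5, those of BUB3, BIRC5, CENPA, FOXM1 and PTTG1, carry a name ending that marks possible cross-hybridisation.

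**Figure D4:**
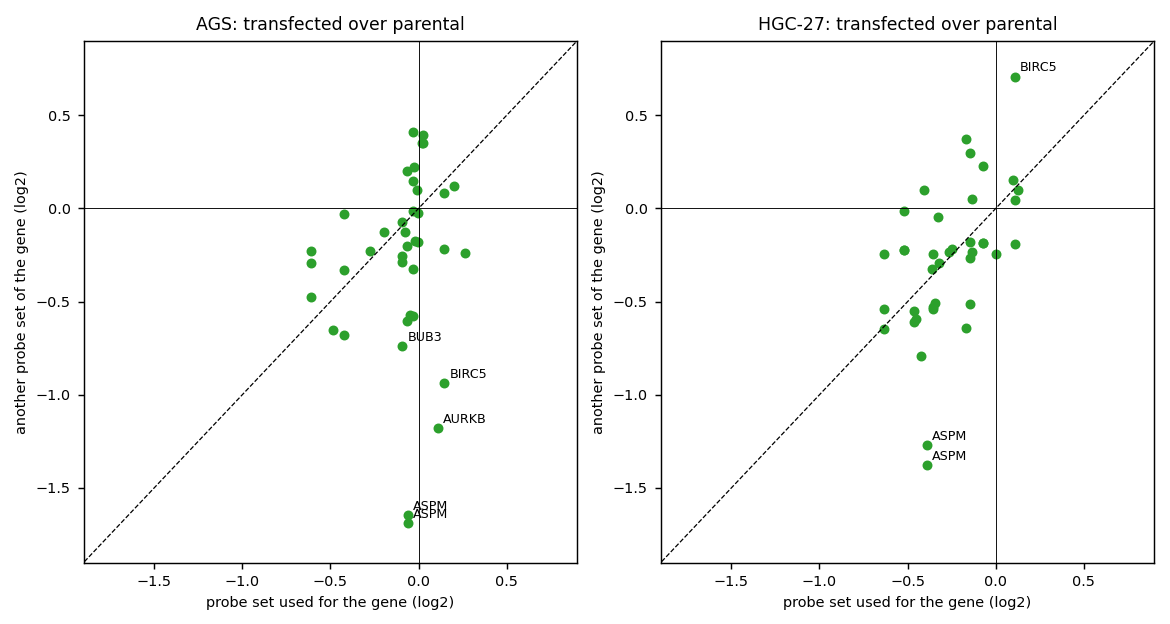
Log2 change of transfected over parental cells for each other passing probe set of a mitotic gene (vertical axis) against the probe set used for that gene (horizontal axis), in AGS (left) and HGC-27 (right), with the dashed line marking equal values. Most of the 39 points lie below 0 in both panels, with ASPM lowest (-1.65 and -1.69 in AGS, -1.38 and -1.27 in HGC-27).

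The lines differed in many members, as they did in many of all genes tested. Over the 3 arrays of each line, 19 members were higher in AGS and 5 lower (background 33.1% higher, 27.1% lower, 60.1% either way), with a median log2 difference of 0.17, against 0.06 over all genes. In 15 members all 3 AGS arrays lay above all 3 HGC-27 arrays (background 34.1%), in 5 they lay below (background 27.2%) and in 25 the lines overlapped. The split between higher and lower depended on the scaling: 14 were higher and 14 lower after quantile normalization, and 13 and 10 with centred arrays. The median difference was then -0.0039 and 0.020, and it was 0.033 between the parental arrays alone. Without the AGS parental array 8 members were lower in AGS, and without either GFP control array 2 were. The 3 arrays of a line are different conditions and stand in for replicates here.

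ECT2 and MKI67 stood furthest apart. ECT2 read 2656 (MIST1), 2491 (GFP control) and 2532 (parental) in AGS, and 891 (MIST1), 852 (GFP control) and 978 (parental) in HGC-27, a log2 difference of 1.50 (SE 0.08, adjusted p = 1.08e-05), and no AGS array came near an HGC-27 array. MKI67 had a difference of 1.49 (SE 0.14, adjusted p = 0.000142), with its lowest AGS array (1443) above its highest HGC-27 array (741). AURKA, the kinase of the spindle poles, read 3107 (MIST1), 3012 (GFP control) and 3126 (parental) in AGS, and 1817 (MIST1), 1594 (GFP control) and 1786 (parental) in HGC-27, a difference of 0.83 (SE 0.07, adjusted p = 7.42e-05). CENPE (0.83), CCNA2 (0.77), CDC25C (0.72), BUB1 (0.68) and UBE2C (0.60) were also higher in AGS. So were CDC25B (0.53), NEK2 (0.48), CCNB2 (0.45), KIF23 (0.41) and TTK (0.40). The remaining 6 were KIF2C, ANLN, DLGAP5, HMMR, BUB3 and CDK1, with differences between 0.22 and 0.37. Of these, ANLN, DLGAP5, HMMR, BUB3 and CDK1 did not pass under either other scaling, and KIF2C did not pass with centred arrays.

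ESPL1, the protease that cuts cohesin at anaphase, was the lowest in AGS relative to HGC-27. ESPL1 read 793 (MIST1), 714 (GFP control) and 755 (parental) in AGS, and 1186 (MIST1), 1146 (GFP control) and 1403 (parental) in HGC-27, a difference of -0.72 (SE 0.10, adjusted p = 0.000872). CDCA8 read 1320.2 (MIST1), 1199.7 (GFP control) and 1108 (parental) in AGS, and 1758 (MIST1), 1652 (GFP control) and 1835 (parental) in HGC-27 and was lower in AGS, with a difference of -0.53 (SE 0.09, adjusted p = 0.0026), while the other 3 passenger complex genes were negative without passing. After quantile normalization all 4 were lower in AGS past the test, and with centred arrays 3 were. KIF14 (-0.31, SE 0.08, adjusted p = 0.0168), NDC80 (-0.30) and CDC20 (-0.24) were also lower in AGS. FOXM1, PLK1 and TOP2A did not differ past the test, at -0.15, -0.04 and -0.15. FOXM1 and TOP2A were lower in AGS after quantile normalization (-0.31 each), as were BUB1B, KIF4A, KIF20A and PTTG1, the last 3 also with centred arrays. The other passing probe sets had the sign of the one used in 34 of 39 cases, including 2 for ECT2 at 1.66 and 1.38 and 3 for MKI67 between 0.38 and 1.21.

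**Figure D5:**
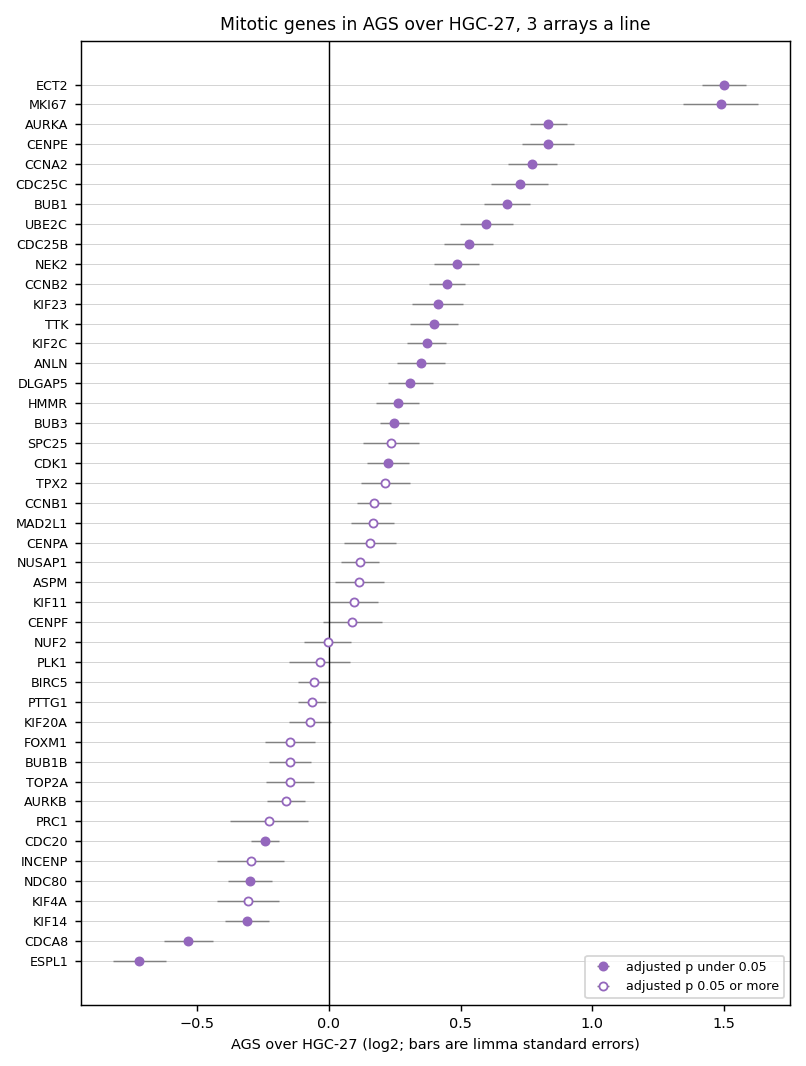
Log2 difference of AGS over HGC-27 over 3 arrays a line for the 45 mitotic genes, sorted, with limma standard errors as bars; filled circles passed an adjusted p under 0.05. ECT2 and MKI67 stand near 1.5, and ESPL1 and CDCA8 are lowest at -0.72 and -0.53.

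Other genes of the cell cycle were counted from 10 lists with 191 measured genes. None passed for MIST1 over the GFP control, with 4 of 191 (2.09%, against 1.34% of all genes) at an unadjusted p under 0.05, or for the GFP control over parental cells, with 43 of 191 (22.5%, against 23.2% of all genes). In transfected over parental cells 18 rose and 44 fell in AGS (background 12.8% rose, 13.6% fell). In HGC-27 18 rose and 25 fell (background 21.4% rose, 8.15% fell). The median was -0.03 in both lines. These backgrounds apply to every list below, and a count near them is no result about that list. Condensins, which compact chromosomes, had the lowest median of the 10 lists in HGC-27, -0.23, where 3 of 8 fell and 1 rose. Their subunit NCAPG fell in both lines, with log2 changes of -0.76 (SE 0.08, adjusted p = 0.00475) in AGS and -0.84 (SE 0.08, adjusted p = 0.00231) in HGC-27, and NCAPD2 also fell in both (-0.37 and -0.44).

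Among 32 other kinetochore and centromere genes, 2 rose and 10 fell in AGS and 3 rose and 4 fell in HGC-27. CENPH and CENPL, of the inner kinetochore, fell in AGS (-0.64 and -0.87) and in HGC-27 (-0.73 and -0.73). Both also fell for MIST1 over parental cells, with log2 changes of -0.83 (SE 0.13, adjusted p = 0.0407) and -0.73 (SE 0.13, adjusted p = 0.0458), as did NCAPG (-0.78, SE 0.11, adjusted p = 0.0376). Of 26 centrosome genes 2 rose and 8 fell in AGS and none rose and 5 fell in HGC-27. Cohesin and its regulators had 4 of 13 falling and none rising in AGS, and 2 rising and 2 falling in HGC-27. Of 17 anaphase-promoting complex genes 1 rose and 4 fell in AGS, and 1 rose and 1 fell in HGC-27.

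The 20 other genes of G2 and M had 3 rising and 3 falling in AGS and 1 rising and 4 falling in HGC-27. DEPDC1B fell in both lines (-0.54 in AGS and -0.54 in HGC-27), and the chromatin protein HMGB2 fell in HGC-27 (-0.56, SE 0.06, adjusted p = 0.00326). Of 24 G1 and S phase genes 2 rose and 7 fell in AGS, and 2 rose and 1 fell in HGC-27. CDC6, which loads the replicative helicase, rose in AGS (0.66, SE 0.08, adjusted p = 0.00545), and MCM10 rose in HGC-27 (0.55, SE 0.08, adjusted p = 0.00526). Of 13 other mitotic kinesin and cytokinesis genes 1 rose in AGS, and 2 rose and 1 fell in HGC-27; SEPTIN9 rose in both lines (0.51 and 0.36).

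Of 20 MuvB, MYB and E2F genes, the regulators of this programme, 5 rose and 2 fell in AGS and 2 rose and 1 fell in HGC-27. E2F1 rose in both lines (0.53, SE 0.15, adjusted p = 0.0423 in AGS and 0.65 (SE 0.15, adjusted p = 0.0218) in HGC-27). MYBL1 rose in AGS (1.10, SE 0.22, adjusted p = 0.0164), and RBL2, the p130 protein that represses cell cycle genes in quiescent cells, fell in HGC-27 (-0.61, SE 0.10, adjusted p = 0.0099). Of 18 genes of mitotic entry 2 rose and 3 fell in AGS and 4 rose and 3 fell in HGC-27. ENSA, which when phosphorylated inhibits the phosphatase PP2A-B55, rose in both (0.56 and 0.63), and the CDK1 inhibitory kinases PKMYT1 (-0.61) and WEE1 (-0.47) fell in HGC-27. Between the lines, 6 of the 24 G1 and S genes were higher and 14 lower in AGS than in HGC-27, and of the 20 other genes of G2 and M 12 were higher and 3 lower (background 33.1% higher, 27.1% lower). CCNE1, cyclin E1, was higher in AGS, with a difference of 2.39 (SE 0.10, adjusted p = 2.74e-06).

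The counts of these lists are on the deposited scaling, and several splits in HGC-27 turned when each array was centred on its median. There 1 rose and 5 fell of the G1 and S genes, 1 rose and 5 fell of the MuvB, MYB and E2F genes, 1 rose and 6 fell of the other kinesin and cytokinesis genes and 1 rose and 7 fell of the mitotic entry genes. Quantile normalization turned the same 4 lists, to 2 rising and 5 falling, 1 and 3, 1 and 5, and 2 and 4. In AGS the centrosome list then held 4 rising and 5 falling genes with centred arrays, and the mitotic entry list 2 rising and none falling. Between the lines the direction of the G1 and S genes held, with 5 higher and 15 lower in AGS under both other scalings. The split of the other G2 and M genes came close to even. It was 6 higher and 4 lower (centred) and 7 higher and 4 lower (quantile), against 12 higher and 3 lower on the deposited scaling.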

How the data were processed

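RNA of 6 samples was measured on 1-colour Affymetrix arrays from 5 µg of total RNA each, per the labels' protocols. The authors deposited 1 linear intensity per probe set and array; the series' design text names dChip, and background correction and scaling are not given in the sources used here. Array medians differed by at most 0.08 (log2), and no further scaling was applied. Of 54675 probe sets, 62 were controls, 41091 named 1 gene, 1801 several and 11721 none in the platform annotation, with 41037 symbols updated. Values were raised to a floor of 17.6 (the 25th percentile) and taken to log2. A probe set was kept if at least 2 of 6 arrays exceeded the median of all values (50.5), which left 25948, and the probe set with the highest mean stood for each of 13738 genes.

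Models were fitted over all 13738 genes with limma 3.58.1 in R 4.3.3 (eBayes with a trend, Benjamini-Hochberg adjustment, threshold 0.05), checked on simulated data. Conditions and lines were compared in 1 fit of 6 arrays with the line as a block. The labels give the same line to the arrays so paired, and this is where the pairing comes from. Transfected and parental arrays were compared within each line in a second fit. Each has 2 residual degrees of freedom. The number of arrays limits the precision.

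The 45 members, their roles and the 10 other lists (198 genes listed, 191 measured) were chosen with earlier results of these data known. Values on every array are given for members past the threshold in a comparison of conditions or in the difference between lines, and for the 3 largest changes each way. At most 3 genes of another list are named per comparison. Alternatives were the filter, the floor, the scaling, the choice of probe set, the variance trend, the block, the arrays fitted and leaving out each array. Promoter sequences are from RefSeq (GRCh38.p14).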

Additional observations from a re-analysis of the deposited data

Results flagged for a closer look

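For 3 mitotic genes the log2 change of transfected over parental cells was more positive or less negative in AGS than in HGC-27. This was by the limma test of the difference itself. UBE2C had -0.02 in AGS and -0.48 in HGC-27, so its change was the greater in HGC-27. PRC1 differed by 0.70, UBE2C by 0.46 and TPX2 by 0.39, from 2 transfected arrays and 1 parental array a line. In PRC1 and TPX2 the parental AGS array was the low one, and in UBE2C the parental HGC-27 array was high. None of the 3 differences passed when any 1 transfected array was left out, and what sets the parental arrays apart was not tested.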

How the results depend on the processing

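Of the 76 results for single members, the calls most open to the processing were those of transfected over parental cells. When any 1 of the 4 transfected arrays was left out, the calls in AGS, in HGC-27 and in their difference were all lost. Those fits had 1 residual degree of freedom, and its part in the loss was not tested. Without the filter the members that rose and fell numbered 0 and 3 in AGS, against 0 and 7 in HGC-27, and 0 differed between lines. Without a variance trend they numbered 2 and 5 in AGS, against 0 and 7 in HGC-27, and 0 differed. The floor at the median left 0 differing. With quantile normalization 5 differed, and with centred arrays 11 did, while 0 rose and 28 fell in HGC-27, with a median of -0.39 there and of 0.39 for the difference. Over all genes the medians with centred arrays were -0.05 in HGC-27 and 0.09 for the difference.

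For MIST1 over parental cells, members that fell numbered 0 without the filter, without the floor, with the floor at the median, without a variance trend and with only the 4 arrays compared, 4 with quantile normalization and 2 with centred arrays. With no replicate block for the cell line that count was 0, and the block changed no other call of a member. Leaving out arrays gave 0 to 22 that fell and 0 to 10 that rose, with a median log2 change of -0.193 to 0.031. The share of all genes called is not given here for any fit with an array left out, in this or the other comparisons. The counts of members from those fits therefore cannot be set against a background, and no excess of members is read from them. Members higher in both lines for MIST1 over parental cells numbered 6 (quantile) and 5 (centred). For GFP control over parental cells, leaving out arrays gave 0 to 27 that fell and 0 to 4 that rose, 3 fell with only the 4 arrays compared, and members higher in both lines numbered 3 (quantile) and 2 (centred). TPX2 there had a log2 change of -0.017 when the parental array of AGS was left out and 0.371 when that of HGC-27 was. These follow the transfected over parental change of the other line, -0.02 in HGC-27 and 0.37 in AGS. For MIST1 over the GFP control, 2 members were lower in both lines with centred arrays and 2 with averaged probe sets.

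For AGS over HGC-27, 14 members were lower with quantile normalization, 10 with centred arrays and 2 to 8 with arrays left out. The median was -0.0039 (quantile), 0.020 (centred) and 0.033 (parental arrays only). With an array left out, a condition with 1 remaining array was assumed to vary like the others. The cause of these shifts was not tested.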
